A study of Danio rerio with 5 samples.

Results

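The genes described here are foxc1a, foxc1b, foxf1, foxf2a, foxf2b, foxd1, tcf21, meox1, nkx2.3 and nkx3.3. All 10 encode transcription factors of mesenchyme and of mural cells, the pericytes and smooth muscle cells that wrap blood vessels. They were taken by symbol from the 36351 genes of the single-cell files, and each symbol matched 1 gene. All 10 were also found among the 17540 genes of the authors' bulk table. The set was drawn up with results of these data known, so its levels are given as descriptions.

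The study sorted fluorescent cells from dissociated zebrafish at 5 days post fertilization, using reporters of pdgfrb, the receptor gene that marks many mural and fibroblast cells. The first group is um148, with 3 bulk libraries made by oligo-dT priming from Tg(pdgfrb:citrine)s1010;pdgfb um148 animals. The second is a single-cell group with 2 libraries of 10x 3' v3 chemistry from Tg(pdgfrb:egfp)ncv22 animals, which carry no other allele in the labels. The strain label writes um148 as a pdgfb allele, and which gene it disrupts was not settled from the files. All 5 samples share the sort on a pdgfrb reporter, so the cells seen are those that passed that sort. Whether each of them carried a lit reporter was not tested. The labels do not say whether libraries of a group came from separate animals or pools, so the spread between them may be technical.

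Forkhead factors of the FoxC and FoxF groups are general regulators of mesenchyme. In mice Foxc1 acts in the meninges and in the mural cells of brain vessels, and Foxf1 and Foxf2 act in gut mesenchyme under hedgehog signals, with Foxf2 also needed in brain pericytes. Nkx2.3 and its bagpipe-type relative nkx3.3 belong to the mesenchyme around the gut, Tcf21 to fibroblasts of internal organs and the epicardium, Foxd1 in mice to kidney stroma, and meox1 to the somites and their derivatives. Zebrafish keep 2 copies each of the FoxC1 and FoxF2 genes. How reads shared between such copies were counted is not given in the sources used here, so the split between foxc1a and foxc1b or foxf2a and foxf2b carries that limit.

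Single-cell library 1 held 12121 barcodes and library 2 held 10182. The filters kept 5653 cells (46.6%) and 7358 cells (72.3%), with medians of 5689 and 6062 UMIs per cell. UMIs are counted transcript molecules. A mitochondrial limit of 10% took 3976 barcodes from library 1 and 407 from library 2, so library 1 stands apart in this respect. The libraries shared 30 barcodes, 11 of them among kept cells. pdgfrb itself was found in 26.9% and 27.4% of kept cells. Clusters of cells were named from marker genes that include none of the 10, and names end in "-like" because they rest on those markers alone. Of the kept cells, 62.4% and 62.1% lay in clusters without a name. Levels below are CPM, UMI counts of a gene scaled to a common total in each class or cluster, given for library 1 and then library 2, in the 49 classes and clusters with at least 30 cells in each library.

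A class was read as enriched for a gene by a rule of size. Its level had to be at least 4-fold that of all other cells and at least 20 CPM, with a UMI in at least 10% of cells, in both libraries. Every member met it in at least 1 of the 49 groups, as 19.2% of all measured genes did. Nothing is read from that count, since the members were chosen on such results. The 4 groups that met the rule for nkx2.3 held 36.9% and 44.0% of its UMIs in 5.50% and 5.83% of cells. The 1 group that met it for foxc1b held 2.02% and 1.34% of its UMIs in 0.796% and 0.557% of cells. In neuron-like cells, taken as a low reference, no member was found in more than 1.08% of cells, at medians of 2662 and 2912.5 UMIs per cell.

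**Figure D1:**
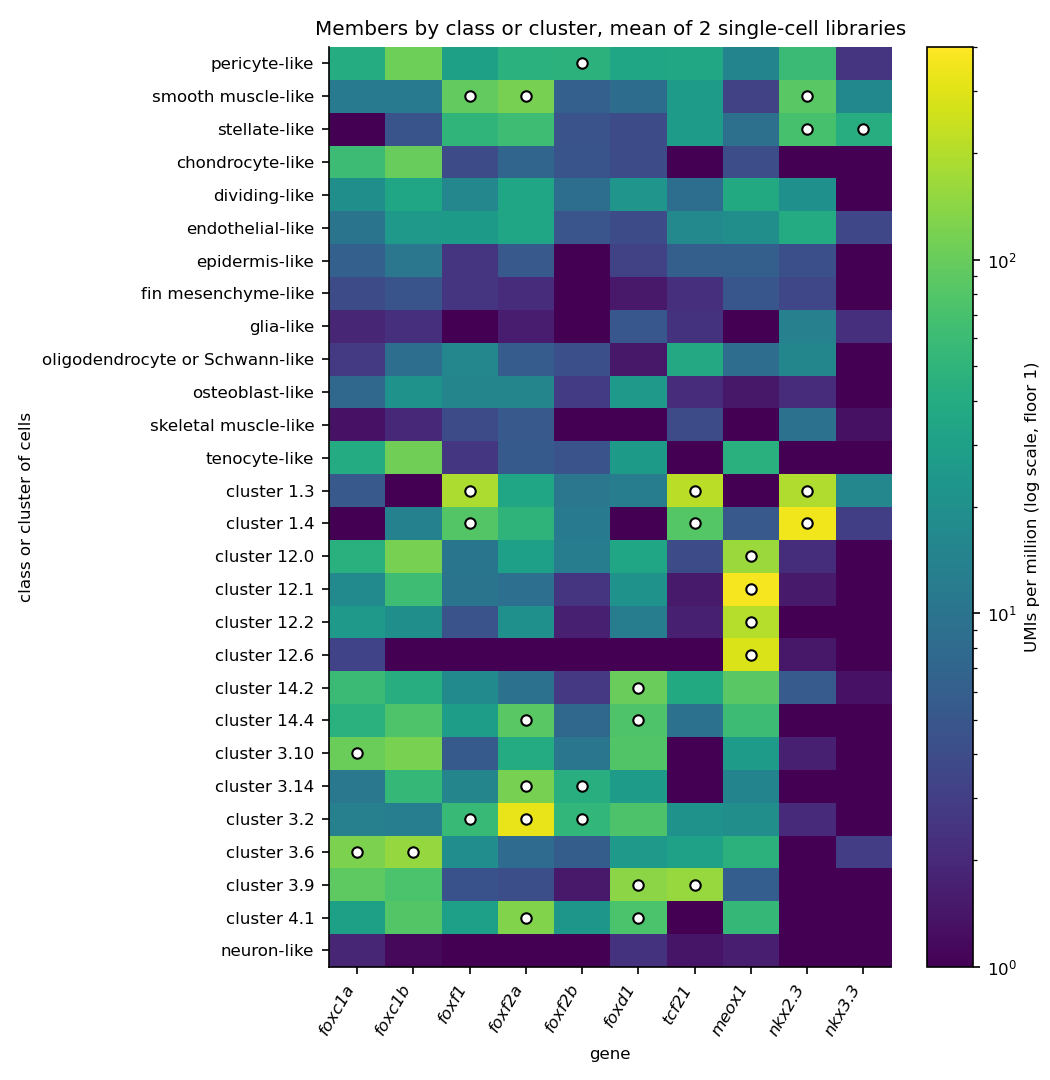
Mean level over the 2 single-cell libraries (colour, CPM on a log scale) of the 10 genes (columns) in the named classes and in the clusters where at least 1 gene met the rule of size (rows). White points mark where it was met in both libraries; foxf1, foxf2a and nkx2.3 share the smooth muscle-like row, and meox1 stands alone in the clusters numbered 12.

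Smooth muscle-like cells were marked by foxf1, foxf2a and nkx2.3, 3 of the 10 members, against 1.04% of all measured genes. The class had 220 and 309 cells, and all 9 smooth muscle markers, such as acta2 and myh11a, were raised in it. foxf1, a gut mesenchyme factor, had 151 and 216 UMIs there, or 94.6 and 93.0 CPM, and was 9.38- and 9.03-fold above all other cells. foxf2a, the first FoxF2 copy, had 119 and 115 CPM, 8.17- and 7.89-fold above other cells. nkx2.3 had 80.8 and 91.3 CPM, 8.60- and 10.5-fold above other cells. For all 3 genes the counting intervals of both libraries overlapped.

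A UMI of foxf1 was found in 42.3% and 42.7% of smooth muscle-like cells, at medians of 6538.5 and 6576 UMIs per cell. With every cell thinned to 1000 UMIs the shares were 9.09% and 8.09%, while in neuron-like cells thinned likewise no foxf1 UMI was found. nkx3.3 was the fourth gene raised in smooth muscle-like cells. It was 8.72- and 10.8-fold above other cells, but its level of 17.5 and 15.1 CPM was under the minimum of 20. The class held 3.89% and 4.20% of cells and a far larger share of the UMIs of 4 genes. These shares were 24.5% and 25.2% for foxf1, 22.0% and 22.8% for foxf2a, 22.9% and 28.1% for nkx2.3, and 23.1% and 28.7% for nkx3.3.

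Stellate-like cells, named from colec11, hand2 and other markers of the vitamin-storing liver cells, were the named class with the highest nkx3.3. Their 31 and 47 cells had 55.8 and 27.1 CPM of nkx3.3, from 17 and 18 UMIs, which was 25.5- and 16.6-fold above other cells. Both counting intervals were wide, at 32.5 to 89.4 and 16.1 to 42.8. nkx2.3 also met the rule there, with 72.3 and 67.8 CPM. foxf1 had 42.7 and 57.2 CPM and foxf2a 72.3 and 52.7, each over the 4-fold minimum in 1 library and under it in the other. foxc1a had 0 and 1 UMI in stellate-like cells and foxc1b had 2 in each library.

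Endothelial-like cells held 15.8% and 14.5% of nkx2.3 UMIs, at 33.8 and 45.3 CPM, without meeting the rule in both libraries. In that class 6 of 9 smooth muscle markers were also raised, and its cells were deep, with medians of 19140 and 17882 UMIs. The part of smooth muscle transcripts in these levels was not tested.

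Pericyte-like cells were marked by foxf2b alone among the 10, against 0.577% of all measured genes. The class was small, with 47 and 68 cells. In it 6 of 7 pericyte markers and 3 of 9 smooth muscle markers were raised, and pdgfrb reached 634 and 722 CPM. foxf2b, the second FoxF2 copy, had 10 and 15 UMIs there, or 50.3 and 44.0 CPM, and was 17.6- and 12.3-fold above all other cells. The level of foxf2b in pericyte-like cells was within the counting intervals of cluster 3.2, described below, and of cluster 3.14. The latter was led by mamdc2b, pappa2 and tppp3, with 3 of 8 fibroblast markers raised. The smaller cluster 14.10, with 13 and 15 cells, had plpp2a, foxl1, clec14a and the pericyte marker rgs5a among its leading genes. foxf2b stood there at 89.3 and 53.9 CPM, above the class but on only 4 and 3 UMIs. Under 6 of 10 other ways of clustering and naming, 2 or 3 members met the rule in pericyte-like cells. foxf2b met it under 8 of the 10 and nkx2.3 under 6. Clustering at resolution 2 gave 145 and 160 pericyte-like cells, where foxf1, tcf21 and nkx2.3 met the rule and foxf2b did not. The same genes replaced foxf2b with no marker needed among leading genes, with 184 and 205 cells. In library 2 all 15 foxf2b UMIs came from 1 cluster of the class, 1.5, which held 20 of its 68 cells, and in library 1 that cluster held 4 of the 10. A foxf2b UMI was found in 14.9% and 13.2% of pericyte-like cells, and in 2.13% and 4.41% after thinning to 1000 UMIs.

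foxc1b had 27 UMIs in pericyte-like cells of each library. Its levels of 136 and 79.3 CPM were 4.76- and 2.46-fold above other cells, so it met the 4-fold minimum in library 1 and not in library 2. nkx2.3 was 4.78- and 5.67-fold higher in pericyte-like cells, at 55.4 and 64.6 CPM, but only 8.51% of these cells had a UMI in library 1, under the minimum of 10%. Both calls thus turned on 1 library. Pericyte-like cells held 6.85% and 6.15% of all foxf2b UMIs and no more than 2.92% of those of any other member.

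Pericyte-like and smooth muscle-like cells were then set side by side, as the 2 mural classes. foxc1b was higher in pericyte-like cells, at 136 and 79.3 CPM, against 7.52 and 16.4 in smooth muscle-like cells, a mean log2 ratio of 3.23 ± 1.34 (SD, n = 2 libraries). foxf2b had 50.3 and 44.0 CPM in pericyte-like cells, against 4.38 and 8.18 in smooth muscle-like cells, a mean log2 ratio of 2.98 ± 0.77. foxc1a had 35.2 and 47.0 CPM in pericyte-like cells, against 11.3 and 12.1 in smooth muscle-like cells, with log2 ratios of 1.64 and 1.96. For these 3 genes the counting interval of the ratio lay above 0 in both libraries. Its lower bounds were 0.14 and 0.98 for foxc1a. foxd1 had 35.2 and 32.3 CPM in pericyte-like cells, against 4.38 and 12.1 in smooth muscle-like cells, a mean log2 ratio of 2.21 ± 1.12, with intervals above 0 in both libraries as well.

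foxf1 and foxf2a went the other way. foxf1 had 30.2 and 29.4 CPM in pericyte-like cells, against 94.6 and 93.0 in smooth muscle-like cells, a mean log2 ratio of -1.65 ± 0.01. foxf2a had 45.3 and 47.0 CPM in pericyte-like cells, against 119 and 115 in smooth muscle-like cells, a mean log2 ratio of -1.34 ± 0.08. Both ratios had counting intervals below 0 in both libraries. tcf21 and nkx2.3 had intervals that took in 0 in each library, with mean log2 ratios of 0.39 ± 0.21 and -0.52 ± 0.03. meox1 rested on 3 and 5 UMIs in pericyte-like cells, against 6 in each library of smooth muscle-like cells, and its library 1 interval ran from -0.62 to 4.23. nkx3.3 had 1 and 0 UMIs in pericyte-like cells, so no ratio is given. With 2 libraries these ratios are given as descriptions, with no test. Some directions also depended on how cells were clustered and named. nkx2.3 was higher in pericyte-like cells under 5 of 10 other ways and foxf1 under 2. tcf21 was lower in pericyte-like cells under 3 of them. foxc1a, foxc1b and foxd1 turned round under 1, which needed no marker among the leading genes and so counted 184 and 205 cells as pericyte-like.

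**Figure D2:**
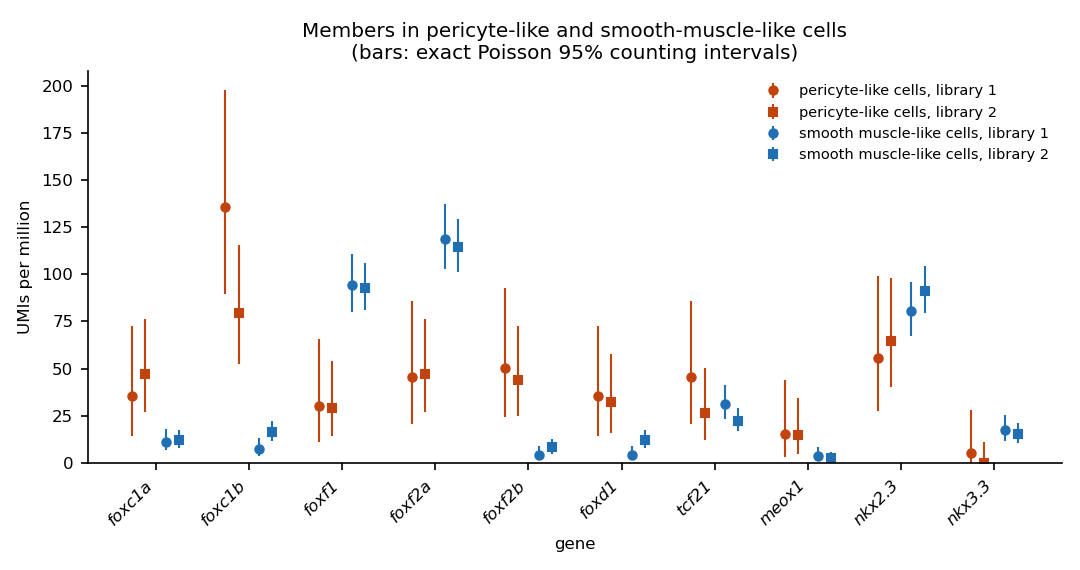
Level of each gene (vertical axis, CPM) in pericyte-like cells (red) and smooth muscle-like cells (blue), with 1 point per library and exact Poisson intervals for counting error only. foxc1b and foxf2b stand higher in pericyte-like cells, foxf1 and foxf2a in smooth muscle-like cells, and the intervals of tcf21 and nkx2.3 overlap.

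Within both classes the members separated clusters from each other. Smooth muscle-like cells fell into cluster 10, with 184 and 252 cells and contractile genes such as desmb and myh11a in the lead, and clusters 2.1 and 2.2, led by rasl12, hey2, fbln5 and rem1. In cluster 10, foxf1 had 100 CPM in each library, foxf2a 127 and 121, and nkx2.3 88.5 and 101. foxc1a had 4.11 and 7.15 CPM there. In cluster 2.2, with 25 and 40 cells, foxc1a had 59.1 and 66.8 CPM and foxc1b had 69.0 and 78.9. No nkx2.3 UMI was found in cluster 2.2, where the upper limits of the counting interval were 36.3 and 22.4 CPM. Cluster 2.1, with 11 and 17 cells, also had foxc1a and foxc1b without a UMI of nkx2.3, foxf1 or tcf21. The FoxC1 genes and nkx2.3 were thus high in different smooth muscle-like clusters. In both libraries foxc1a in cluster 2.2 stood above its level over all pericyte-like cells. Pericyte-like cluster 1.5 had foxc1a at 54.4 and 86.1 CPM, from 4 and 13 UMIs, with counting intervals that took in the levels of cluster 2.2. The class ratio of foxc1a was thus not seen for cluster 2.2, and the order of clusters 2.2 and 1.5 is not settled. Splitting fewer clusters a second time, an alternative chosen after seeing the data, left 184 and 252 smooth muscle-like cells. The mean log2 ratio was then 2.91 for foxc1a and 4.71 for foxc1b.

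Cells with pericyte markers also differed by cluster, on smaller counts. Cluster 1.5, with 13 and 20 cells led by ndufa4l2a, rasl12 and rgs5a, had foxc1b at 190 and 126 CPM and foxf2b at 54.4 and 99.3. nkx2.3 had 2 and 0 UMIs in cluster 1.5. Cluster 1.1, with 10 and 19 cells led by cables2b, pln and TCIM_1_of_many, had nkx2.3 at 207 and 202 CPM, from 2 and 4 cells with a UMI. foxc1a had 0 and 1 UMI in cluster 1.1, and foxc1b had 3 and 1, with a library 1 level of 88.5 CPM whose interval overlapped that of cluster 1.5. Cluster 1.8, the largest of the class with 24 and 29 cells, had foxc1b at 110 and 53.8 CPM and nkx2.3 at 21.9 and 76.8. The libraries differed on foxf2b in cluster 1.8, which had 54.8 CPM in library 1 and no UMI in library 2.

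Cluster 1.4 carried the pericyte markers but no name. Of the 7 pericyte markers 6 were raised in it and pdgfrb stood at 440 and 428 CPM, but none of the 7 was among its 10 leading genes, which included rbpms2b, ndufa4l2a and pcdh18a. It had the highest nkx2.3 of the 49 groups, with 37 and 51 UMIs in 30 and 40 cells, or 397 and 312 CPM. foxf1 had 85.8 and 73.4 CPM there and tcf21 had 85.8 and 79.5, both meeting the rule of size. No foxc1a or foxd1 UMI was found in it. Among cells with pericyte markers, foxc1b was thus high in cluster 1.5 in both libraries, and nkx2.3 in clusters 1.1 and 1.4.

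**Figure D3:**
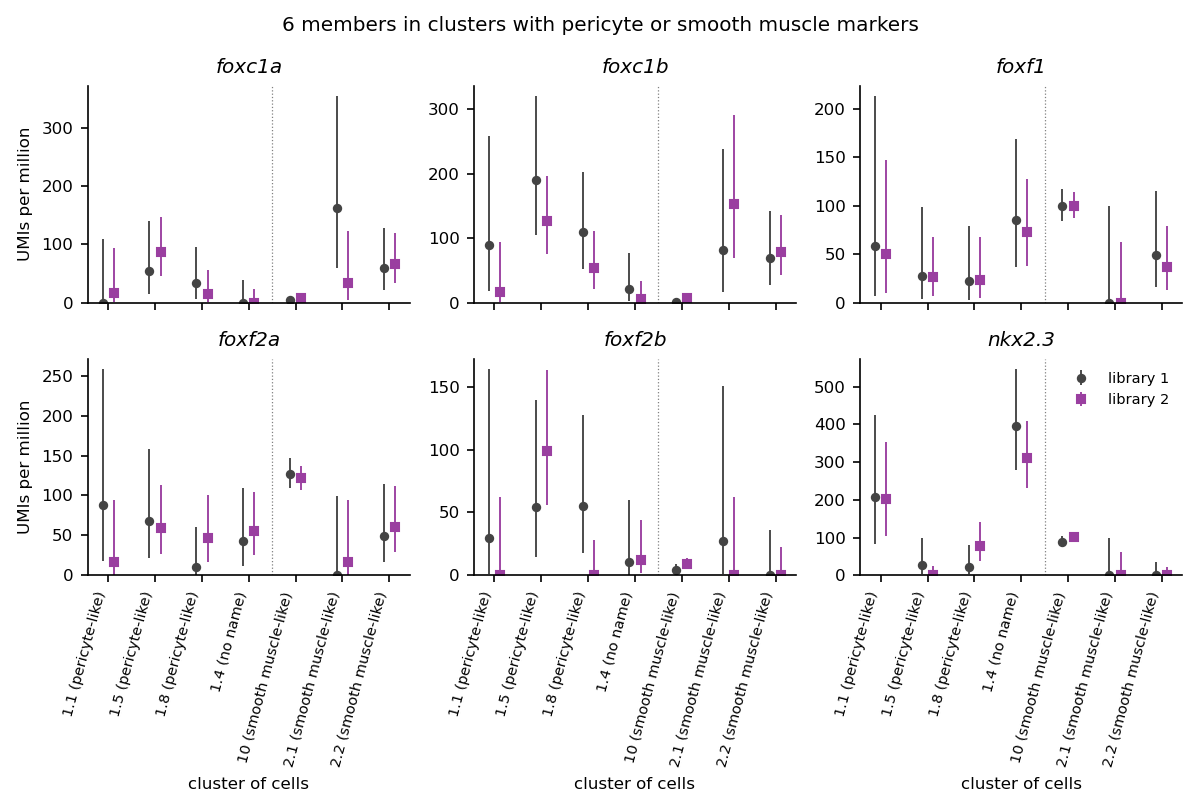
Level of 6 genes (CPM, each panel with its own axis from 0) in 4 clusters with pericyte markers (left of the dotted line) and 3 smooth muscle-like clusters (right of it), by library, with exact Poisson counting intervals. nkx2.3 peaks in cluster 1.4, foxc1b is high in 1.5 and in 2.1 and 2.2, and foxf1 and foxf2a have narrow intervals in cluster 10, which holds the most cells.

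foxf1, nkx2.3 and tcf21 all met the rule in cluster 1.3. Its 30 and 33 cells were led by lyve1a, chrm1b and sctr, and only 1 of 7 pericyte markers and 2 of 8 fibroblast markers were raised in it. foxf1 was highest of all 49 groups there, at 203 and 176 CPM, from 19 and 24 UMIs. Its interval did not overlap that of smooth muscle-like cells, the next in order. It did overlap that of cluster 1.4, which ran from 37.0 to 169 and from 37.9 to 128 CPM. Some clusters too small for the 49 groups had more foxf1. Cluster 1.6, with 11 and 10 cells led by BX248318.1 and uts2d, had it at 351 and 415 CPM. Cluster 24, with 12 and 20 cells led by fbp2 and pgam1a, had it at 272 and 245. tcf21 was also highest of the 49 in cluster 1.3, at 214 and 212 CPM, and nkx2.3 was second after cluster 1.4, at 214 and 176. No foxc1b UMI was found in cluster 1.3, where the upper limits of the counting interval were 39.4 and 27.0 CPM.

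Among fibroblast-type clusters, judged by 8 fibroblast markers such as col1a1a and pdgfra, foxf2a pointed to cluster 3.2. That cluster had 54 and 82 cells, was led by mamdc2b, tppp3 and dpt, and had 5 of the 8 fibroblast markers and 1 of 7 pericyte markers raised. foxf2a had 89 and 109 UMIs in it, or 369 and 293 CPM, which was 22.7- and 17.7-fold above other cells. A foxf2a UMI was found in 64.8% and 61.0% of its cells, and in 20.4% and 22.0% after thinning. The next group in order, cluster 4.1 with 161 and 95.4 CPM, had an interval that did not reach that of cluster 3.2. Among smaller clusters 14.7, with 25 and 40 cells led by si:ch211-106h4.12, alpl and scube2, had foxf2a at a like level, 342 and 360 CPM. foxf2b, its duplicate, had 41.5 and 64.5 CPM in cluster 3.2, and foxf1 had 62.2 and 53.8. nkx2.3 had 1 and 0 UMIs there, so foxf1, foxf2a and foxf2b were high in these cells with hardly any nkx2.3 counted.

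Among the 49 groups foxc1a and foxc1b both led in cluster 3.6, which had pappa2, cxcl12b and rspo3 as leading genes. In it 5 of 8 fibroblast and 2 of 7 pericyte markers were raised, and pdgfrb stood at 294 and 305 CPM. foxc1a had 117 and 129 CPM in its 45 and 41 cells, 5.75- and 6.06-fold above other cells. foxc1b had 164 and 145, 5.77- and 4.52-fold above. In library 2 foxc1b was highest in the neighbouring cluster 3.1, at 146, and the intervals of both clusters overlapped. Smaller clusters had still higher foxc1b. Cluster 26.5, with 11 and 22 cells led by irx1b and lmx1bb, had 319 and 256 CPM. Cluster 26.0, with 25 and 23 cells led by asip1 and hyal4, had 235 and 349 CPM. foxc1a also met the rule in a cluster led by cyp1c2, adamts15b and cldn11a, with 97.1 and 112 CPM.

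foxc1b was also widely present in 2 classes of skeletal tissue, cartilage and tendon, and foxc1a in cartilage. In chondrocyte-like cells foxc1a had 57.9 and 64.0 CPM, with a UMI in 43.0% and 49.1% of cells, and foxc1b had 113 and 86.8, with a UMI in 63.3% and 59.0%. foxc1b in tenocyte-like cells had 91.6 and 128 CPM. These levels were under 4-fold that of the rest in at least 1 library. Tenocyte-like cells held 7.05% and 7.23% of foxc1a UMIs, in 5.08% of the cells of each library. In osteoblast-like cells foxc1a had only 1.47 and 13.8 CPM and foxc1b 14.7 and 27.6, while foxf1 and foxf2a each had 2.93 and 27.6. Over all kept cells foxc1a stood at 20.8 and 21.6 CPM.

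foxd1 and tcf21 met in cluster 3.9, led by crabp1b, cxcl12a and lbx2, with 32 and 57 cells. foxd1 was highest there, at 158 and 127 CPM, 10.9- and 7.87-fold above other cells. tcf21 had 147 and 172 CPM there, 12.3- and 15.7-fold above. Only 1 of 8 fibroblast markers was raised in cluster 3.9. foxd1 also met the rule in clusters 14.2, 14.4 and 4.1, at 62.8 to 122 CPM over both libraries, and tcf21 did not. tcf21 had no UMI in chondrocyte-like cells in either library.

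Smaller clusters, down to 10 cells in each library, had still higher levels of both. In cluster 15.7, with 18 and 25 cells led by nr1h5, cxcl12a and kcne4, tcf21 had 442 and 400 CPM. In cluster 3.3, with 25 and 30 cells led by cxcl12a and rbp7b, foxd1 had 328 and 375 CPM and tcf21 had 353 and 350. foxc1a reached 232 and 238 in cluster 15.4, which had slc6a4a and cldn11a in the lead, and foxd1 had 284 and 335 in the same cells. nkx3.3 reached 145 and 212 in cluster 1.2, with 24 and 23 cells that had nkx2.5 among their leading genes.

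meox1 stood apart from the other 9. It met the rule in 4 clusters, 12.0, 12.1, 12.2 and 12.6, where no other member did. In cluster 12.1, led by ucmaa, cilp2 and thbs4a with 7 of 8 fibroblast and 3 of 6 tenocyte markers raised, meox1 had 81 and 108 UMIs, or 399 and 331 CPM, 18.5- and 15.8-fold above other cells. In cluster 12.6, led by fgl1, pax3b and myf5, it had 261 and 309 CPM and a UMI in 77.8% and 73.0% of cells. pax3b and myf5 are genes of muscle progenitors, and only 1 of 8 fibroblast markers was raised in that cluster. The 4 clusters held 28.4% and 22.3% of meox1 UMIs in 2.92% and 2.54% of cells. The smaller cluster 12.5, with 17 cells in each library and col8a1a and tbx5a among its leading genes, had meox1 at 681 and 216 CPM. These came from 41 and 15 UMIs.

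The libraries gave the same leading group for 8 of the 10 members. The 2 others were foxc1b, with clusters 3.6 and 3.1, and foxf2b, with pericyte-like cells in library 1 and cluster 3.2 in library 2. Among named classes alone the leader was the same for 6 members. Over the 49 groups, log2 levels of a member correlated between libraries with a Pearson r of 0.631 for nkx3.3, the least counted gene, up to 0.919 for nkx2.3. These groups share the libraries' depth, so the values are descriptions.

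Co-detection asked which members were found in the same cells. Of the 45 pairs, 17 were found together in at least 10 cells and at least 2-fold more often than the product of their shares, in both libraries. The highest was nkx2.3 with nkx3.3, in 42 cells of each library, 10.4 and 12.3 times the product. Of the nkx3.3 cells 51.2% and 56.0% also had nkx2.3, against 4.92% and 4.54% of all kept cells. foxf1 and nkx2.3 shared 115 and 149 cells, 6.29 and 6.44 times the product. foxf1 and foxf2a shared 156 and 209, 5.58 and 5.20 times. These 4 genes, with tcf21, made up a block in which each pair passed in both libraries except tcf21 with nkx3.3, found in only 7 cells of library 2.

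The duplicates were found together as well. foxf2a and foxf2b shared 49 and 86 cells, 5.39 and 5.77 times the product, and foxc1a and foxc1b shared 264 and 413, 2.65 and 2.76 times. foxc1a with foxd1 gave 2.94 and 3.16 times the product, and foxd1 with tcf21 gave 3.29 and 3.69 times. foxc1a or foxc1b was found in 20.2% and 22.3% of cells with foxf1 or nkx2.3, against 22.2% and 23.4% of all kept cells. foxc1a with tcf21 did pass, at 2.12 and 2.31 times the product on 71 and 92 cells, and foxc1b with foxf2a was at 1.36 and 1.40 times. meox1 passed with no other member, and its ratios to the product ran from 0.505 to 1.43.

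Deep cells show more genes, so detection in pairs can follow depth. Thinning also lowers the number of cells with both genes, of which the rule needs at least 10. With every cell thinned to 1000 UMIs 3 pairs passed, and with cells thinned to 2000 UMIs 12 did. The 3 pairs at 1000 UMIs were foxc1a with foxc1b, foxc1a with foxd1 and foxc1b with foxd1. At that depth foxf1 with nkx2.3 had ratios of 7.37 and 10.5 on 7 and 10 cells, so it missed the minimum of cells and not that of the ratio.

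**Figure D4:**
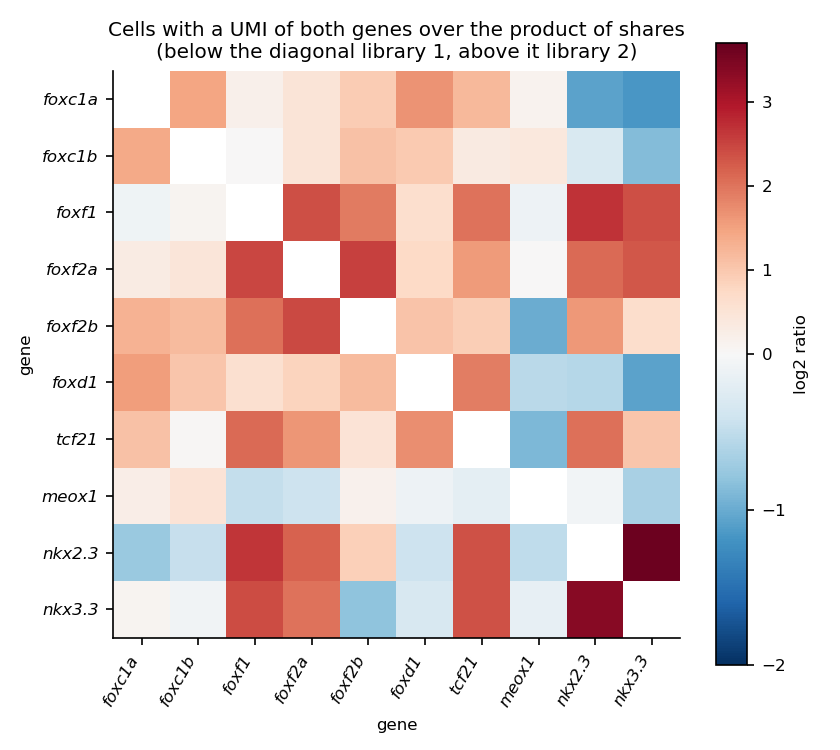
Number of cells with a UMI of both genes over the product of the 2 genes' shares, as a log2 ratio (colour; 0 is the product, red above it), for all pairs of the 10 genes, with library 1 below the diagonal and library 2 above it. foxf1, foxf2a, tcf21, nkx2.3 and nkx3.3 form a red block, and the meox1 row and column stay pale or blue.

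Within smooth muscle-like cells the pairs were nearer to the product. foxf1 and nkx2.3 shared 38 and 62 cells there, 1.18 and 1.37 times the product, and foxf1 with foxf2a gave 1.36 and 1.26 times. foxc1a with foxc1b kept ratios of 7.05 and 3.87 in this class, on 5 and 8 cells. In pericyte-like cells no pair reached 10 cells. foxc1b and foxf2b shared 4 and 7 cells there.

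The genes most like each member over the 49 groups were sought among 11710 genes by the lower of the Pearson r of both libraries, as a description. foxc1a was nearest to foxc1b (r of 0.813 and 0.894), then to foxd1 and to foxd2, another FoxD gene. foxc1b was nearest to foxc1a, the growth factor gene tgfb3 and foxd1. foxd1 was nearest to foxc1a, foxd2 and cdh11, a cadherin of mesenchyme. foxf1 was nearest to foxf2a (0.806 and 0.698), pde5ab and dpt, while foxf2a was nearest to foxf2b (0.720 and 0.794), foxf1 and foxl1, a forkhead gene of gut mesenchyme in mice. foxf2b was nearest to foxf2a, foxl1 and ptch1, a hedgehog receptor and target gene (0.804 and 0.608).

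nkx2.3 had the closest companion of all, kcne4, a potassium channel subunit gene, with r of 0.872 and 0.865, followed by si:ch211-62a1.3 and CR318588.3. tcf21 was nearest to si:ch211-270g19.5, wu:fj16a03 and nkx2.3 (0.670 and 0.666). nkx3.3 was nearest to hlx1, a homeobox gene (0.690 and 0.637), si:ch211-173d10.4 and colec11. meox1 was nearest to vwde, olfml2bb and cilp, the last a cartilage matrix gene, with 0.728 and 0.727 for vwde. Members were thus the nearest gene of a member for 6 of the 10. On the GRCz12tu assembly of the RefSeq gene table, some of these genes are also neighbours: nkx3.3 lies next to nkx2.3, foxf2b next to foxc1b, and foxf2a follows foxc1a with only ftr93 between them.

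In the 3 um148 libraries the members were read as normalized counts, reads divided by the authors' size factor of each library. The steps between low values put the libraries at 16848358, 19440480 and 21437870 reads in listed genes. foxc1a had 5638, 7530 and 8222 normalized counts in um148 libraries 1, 2 and 3, a mean of 7130 ± 1338 (SD, n = 3), and foxc1b had 4554, 5619 and 5836. Both were lowest in library 1. foxf2a had 1187, 2318 and 1836, foxf2b had 702, 1143 and 1184, foxf1 had 177, 251 and 267, and meox1 had 337, 520 and 493, all again lowest in library 1. foxd1 had 1978, 1634 and 1360, highest in library 1.

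tcf21 and nkx2.3 had the widest spread of the 10. tcf21 had 53.5, 41.9 and 20.8 normalized counts and nkx2.3 had 59.5, 45.9 and 21.8, so that the highest library was 2.57- and 2.73-fold the lowest. nkx3.3 had 25.2, 18.0 and 21.8 normalized counts. The median SD of log2(CPM + 1), with CPM taken over reads, was 0.239 over the members and 0.344 over all genes of the table. Marker sums differed between the libraries too: the 7 pericyte markers summed to 21557, 25413 and 35548 normalized counts, and the 8 listed smooth muscle markers to 12206, 12418 and 15131. The part of cell makeup in the members' spread was not tested, and in bulk libraries fewer cells of a type and less RNA per cell cannot be told apart.

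The authors' deposited table compares um148 with wild-type and called 0 of the 9 members with an adjusted p, at a threshold of 0.05, against 11.3% of 16853 genes. At an unadjusted p under 0.05 it also held 0 of the 10, against 24.1% of all genes. Its fold change was read as um148 over wild-type, because only this direction gives a wild-type total near that of um148. The table gives no standard errors. The ± values on its fold changes, here and below, were derived here from its test statistic. In the authors' deposited table foxc1a had a log2 fold change of 0.58 ± 0.31 (derived standard error) with an adjusted p of 0.230, and foxc1b 0.41 ± 0.24 with 0.291. foxf2a had 0.41 ± 0.36 with an adjusted p of 0.505 in the authors' deposited table, and foxd1 0.24 ± 0.32 with 0.705.

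The other 6 log2 fold changes in the authors' deposited table were below 0. foxf1 had -0.18 ± 0.31 (adjusted p of 0.778), foxf2b -0.33 ± 0.38 (0.641) and meox1 -0.11 ± 0.35 (0.882) in the authors' deposited table. The 3 genes of lowest count had the lowest values there: tcf21 at -0.87 ± 0.54 (adjusted p of 0.317), nkx2.3 at -0.76 ± 0.52 (0.373) and nkx3.3 at -1.04 ± 0.60, for which the table gives no adjusted p. The median over the 10 was -0.15, and 0.02 over all genes of the authors' deposited table. None of the 10 changes passed the test, and the standard errors were derived here from the table's test statistic.

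**Figure D5:**
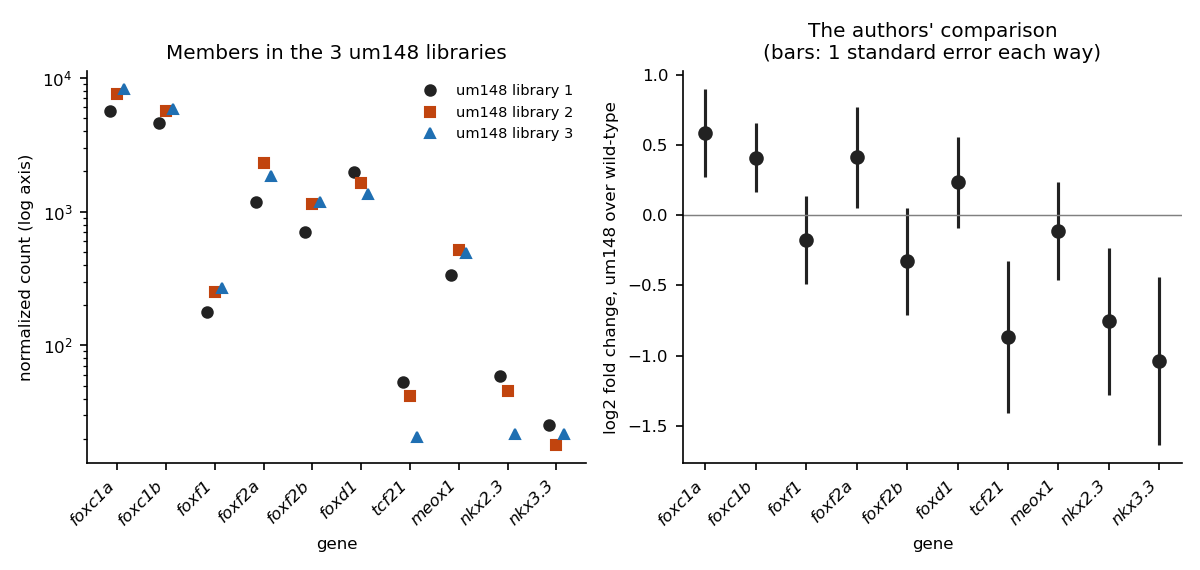
Left, normalized counts (log axis) of the 10 genes in um148 libraries 1 to 3. Right, the authors' log2 fold change of um148 over wild-type, with bars of 1 standard error each way derived here from the test statistic. In um148 tcf21 and nkx2.3 are lowest in library 3, and none of the 10 genes on the right was called.

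A list of 65 other transcription factors, drawn up for mesenchyme and mural cells, gives the setting for these values. It was chosen with earlier results of these data known, so its shares are given as descriptions. Among the 58 in the authors' deposited table, at an adjusted p under 0.05, 4 were called higher in um148, against 6.18% of all genes, and 2 lower, against 5.13%, with a median log2 fold change of 0.16 over the 58. tbx1, a T-box factor of head mesenchyme, had 1092, 1782 and 1404 normalized counts in um148 and had a log2 fold change of 1.50 ± 0.30 (adjusted p of 4.45e-05) in the authors' deposited table. In the single cells tbx1 met the rule of size in 6 groups. These were skeletal muscle-like cells and clusters 14.4, 3.1, 3.14, 3.6, where the FoxC1 genes led, and 3.2, where foxf2a led. foxd2 had 1501, 2047 and 2935 normalized counts and a log2 fold change of 1.02 ± 0.35 (adjusted p of 0.0336) in the authors' deposited table, and met the rule in 5 groups, cluster 3.9 of foxd1 and tcf21 included. foxp1a had 1578, 1846 and 1420 normalized counts and rose by 0.86 ± 0.25 (adjusted p of 0.0114) in the authors' deposited table. foxq1a, the gene beside foxf2a on GRCz12tu, had 337, 423 and 172 and rose by 1.28 ± 0.46 (adjusted p of 0.0487) in the authors' deposited table. In the single cells foxq1a met the rule in no group and had 5.03 and 0 CPM in pericyte-like cells. In smooth muscle-like cells it had 9.39 and 20.2 CPM, against 19.9 and 31.3 in all other cells. It was among the leading genes of the small clusters 0.1 and 0.3, the latter with the epithelial genes cldnb and krt15. Which cells its rise came from was not tested.

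The 2 that fell were twist1a, a mesenchyme factor, and hey1, a target of Notch signals. twist1a had 3312, 2832 and 3281 normalized counts in um148 and a log2 fold change of -0.84 ± 0.28 (adjusted p of 0.0308) in the authors' deposited table. hey1 had 1271, 525 and 781 and a log2 fold change of -1.20 ± 0.35 (adjusted p of 0.0105) there, in the authors' deposited table. In that comparison 2 of the 7 pericyte markers were called lower in um148 and 0 higher, and their part in the hey1 value was not tested.

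Of the 65, 7 met the rule of size in pericyte-like cells, against 0.577% of all measured genes, and 2 in smooth muscle-like cells, against 1.04%. Nothing is read from these counts, since the list was chosen with such results known. hey1 was one of the 7, with 106 and 112 CPM in pericyte-like cells, against 25.7 and 30.6 in smooth muscle-like cells. Among the others were foxl1, tbx2b, zeb2a, epas1a and epas1b. tbx2b, a T-box repressor, had 297 and 197 CPM in pericyte-like cells, against 15.7 and 28.8 in smooth muscle-like cells, and zeb2a, a zinc finger repressor, had 448 and 499 in pericyte-like cells, against 42.6 and 73.2 in smooth muscle-like cells. epas1a and epas1b, which encode hypoxia-responsive factors, had 90.6 and 120, and 131 and 123, in pericyte-like cells, against at most 12.5 in smooth muscle-like cells. foxl1 had 65.5 and 44.0 CPM in pericyte-like cells, against 11.9 and 10.3 in smooth muscle-like cells. In smooth muscle-like cells the 2 were myocd, the coactivator that drives the contractile program, and hand2, a factor of gut and heart mesenchyme. myocd had 35.2 and 20.6 CPM in pericyte-like cells, against 269 and 220 in smooth muscle-like cells. hand2 had 5.03 and 35.2 in pericyte-like cells, against 97.1 and 95.6 in smooth muscle-like cells.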

How the data were processed

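Bulk values are normalized counts, a signal that the authors made by dividing reads by 1 size factor per library, per the file headers and values. The authors' deposited table also gives a log2 fold change, a linear fold change, a test statistic (score) and the p-value, both raw and adjusted, with the -log10 of the second form. The submitters' processing notes name CASAVA 1.8.2, STAR, RSEM, DESeq2 and the GRCz11 build. The single-cell files hold UMI counts that the authors made with Cell Ranger 3.1.0, per the file headers. The bulk file also has 3 columns of wild-type libraries, which are no samples of this series and were not used.

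Barcodes with at least 500 genes and at most 10% mitochondrial UMIs were kept. Predicted doublets were then removed at an assumed rate of 0.8% per 1000 barcodes, since the automatic threshold marked 0 in both libraries. Cells of both libraries were clustered on 2000 variable genes without the 10 members (scanpy 1.11.5). Clusters left without a name were then split again if they held at least 300 cells, or at least 100 where a marker set was raised. Clusters named in the first round, such as cluster 10, were not split. A cluster was named where at least 3 markers and at least 60% of a set were raised. At least 1 of them also had to be among its 10 leading genes, with no other set having more there. Counts were summed per library and class, with exact Poisson 95% intervals that cover counting error only. A fold against cells with no UMI uses a floor of 3 counts. Standard errors of the authors' changes were not among the authors' columns and were derived here. Each is the size of the log2 fold change over the square root of the statistic. The statistic is positive for negative changes too (0.32 for foxf1), and reading it as a squared ratio was not tested. If it is of another kind, the ± values do not hold as standard errors. Every number of the single-cell part rests on 2 libraries and has no test. The rule of size and the search for like genes were tested on simulated data, the rule only at the size of the smooth muscle-like class. The smaller pericyte-like class, the ratios, co-detection, clustering and naming were not tested in this way.

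The members, the list of 65 factors and the markers were chosen with earlier results of these data known. The named genes are the members, the 3 genes most like each (by log2(CPM + 5)), and those of the 65 that were called or met the rule of size in a mural class, of which 1 is not reported here. Alternatives covered filters, clustering, naming, thresholds and libraries left out.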

Additional observations from a re-analysis of the deposited data

Results flagged for a closer look

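A signal of the members was present in barcodes outside the main measurement. The barcodes removed by the mitochondrial limit held 1239 UMIs of the 10 genes in library 1 and 131 in library 2. Summed over the 10 genes, the removed barcodes stood at 84.0 and 68.1 CPM. The kept cells stood at 149 and 154 CPM, and neuron-like cells, taken as a low reference, at 5.53 and 16.1 CPM.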

How the results depend on the processing

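No paired analysis was possible because the um148 and single-cell libraries share only replicate numbers and are never compared. The number of members enriched in pericyte-like cells was 1. It was 3 with clustering resolution 2 or with no marker needed among leading genes, 2 with a mitochondrial limit of 20% or 5%, with no doublets removed or with each library clustered alone, and 5 at a fold minimum of 2. Leaving out either library gave 2. foxf2b was among them in 8 of the 10 alternatives that changed the classes, and foxf1, foxf2a and nkx2.3 were enriched in smooth muscle-like cells in all 10. The log2 ratio of pericyte-like over smooth muscle-like cells turned round with no marker needed among leading genes for foxc1a (-0.82), foxc1b (-0.017), foxf1 (0.26), foxd1 (-0.53) and nkx2.3 (1.41). It also turned round at resolution 2 for foxf1 (0.26) and nkx2.3 (1.42). For tcf21 it was -0.52 at resolution 0.5, -0.93 with the members among the clustering genes and -0.16 with at least 1000 genes per barcode. For nkx2.3 it was 1.09 at a limit of 5%, 0.49 with no doublets removed and 0.27 with each library clustered alone. The cause was not tested. The median over the 10 members of their mean um148 log2(CPM + 1) was 5.15, and 5.50 at a pseudocount of 10. Co-detected pairs numbered 17, and 3 at 1000 UMIs. The 6 called factors of the list became 1 at an adjusted p of 0.01 and 10 at 0.1. A second round for fewer clusters, co-detection at a mitochondrial limit of 5% or at least 1000 genes per barcode, and a common scaling factor were chosen after seeing the data. Few pericyte-like cells (47 and 68) limit the counts behind their levels.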
